A study of Mus musculus with 18 samples.

Results

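The genes described here are 5 enzymes that reduce quinones, carbonyls and reactive enones in the cytosol: Nqo1, Nqo2, Cbr1, Cbr3 and Ptgr1. They were chosen by symbol, as probe sets annotated to a single one of these names. That gave 7 probe sets (3 for Nqo2 and 1 for each other gene), and per gene the one with the highest mean over 18 arrays was used. All 5 genes were among the 13434 genes tested of 18193 with a name, and each lay above the 40th percentile of its array on 18 of 18 arrays. The set was proposed with the rises of Nqo1 under NDA and benzofuran already known, so Nqo1 is described without a test wherever either treatment enters.

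The study compared transcripts of the right lung lobe in female mice of the hybrid strain B6C3F1, common in carcinogenicity bioassays, which were 18 weeks old after 13 weeks of dosing. The 6 groups held 3 mice each, with 1 animal per Affymetrix array, and no genetic modification is labelled for any of them. As positive for lung cancer the labels class 2,3-benzofuran, gavaged at 240 mg/kg in 5 ml/kg corn oil on 5 days a week, and 1,5-naphthalenediamine (NDA), fed at 2000 ppm. They class N-(1-naphthyl)ethylenediamine dihydrochloride (NEDD, 2000 ppm in feed) and pentachloronitrobenzene (PCNB, 8187 ppm in feed) as negative. Mice on plain rodent chow were the one control of NDA, NEDD and PCNB, which were fed on 7 days a week. Mice gavaged with corn oil alone were the control of benzofuran. The whole lobe was sampled, so fewer cells of a type and less RNA per cell cannot be told apart.

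Quinones and many aldehydes and ketones arise when the lung oxidises aromatic chemicals, and they can attack proteins and DNA or cycle with oxygen. NQO1 reduces a quinone straight to the hydroquinone, which avoids the semiquinone radical, and carbonyl reductases of the short-chain dehydrogenase family turn ketones into alcohols. The transcription factor NRF2, held down by KEAP1 until electrophiles appear, activates NQO1 and other genes through antioxidant response elements. The aryl hydrocarbon receptor (AhR), which binds planar aromatic ligands, activates NQO1 and CYP1 genes through xenobiotic response elements.

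The promoters of the 3 genes that moved most are shown because these genes rose together with NDA and with benzofuran. The sequences are from RefSeq (mouse GRCm38.p6), each from 250 bases before to 50 bases after a transcription start, 5′ to 3′ on the gene's strand. All 5 genes matched an entry of the RefSeq promoter table. The start used equalled the start of the RefSeq gene record for Nqo1, Cbr1 and Cbr3, but not for Ptgr1 or the Nqo2 windows. Both strands were searched for the antioxidant response element core TGACNNNGC, the xenobiotic response element core GCGTG, the AP-1 site TGACTCA and the TATA box TATAAA. The antioxidant core and the AP-1 site share the letters TGAC. Capitals mark matches, written as read on the printed strand. Nqo1 lies on chromosome 8 (chr8:107403156-107403455, minus strand). Cbr1 (chr16:93607587-93607886) and Cbr3 (chr16:93682969-93683268) lie on the plus strand of chromosome 16, with 0 protein-coding genes starting between them.
Nqo1: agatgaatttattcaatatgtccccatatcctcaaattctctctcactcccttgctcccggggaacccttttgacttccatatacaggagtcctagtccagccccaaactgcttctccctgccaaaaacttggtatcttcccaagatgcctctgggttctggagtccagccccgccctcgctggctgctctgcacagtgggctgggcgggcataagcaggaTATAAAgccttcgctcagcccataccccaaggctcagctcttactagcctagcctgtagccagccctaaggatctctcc
Cbr1: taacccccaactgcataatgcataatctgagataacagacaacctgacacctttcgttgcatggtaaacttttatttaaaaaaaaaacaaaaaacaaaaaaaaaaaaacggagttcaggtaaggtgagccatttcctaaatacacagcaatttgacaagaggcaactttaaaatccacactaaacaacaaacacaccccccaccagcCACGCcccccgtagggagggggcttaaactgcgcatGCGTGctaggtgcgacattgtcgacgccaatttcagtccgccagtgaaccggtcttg
Cbr3: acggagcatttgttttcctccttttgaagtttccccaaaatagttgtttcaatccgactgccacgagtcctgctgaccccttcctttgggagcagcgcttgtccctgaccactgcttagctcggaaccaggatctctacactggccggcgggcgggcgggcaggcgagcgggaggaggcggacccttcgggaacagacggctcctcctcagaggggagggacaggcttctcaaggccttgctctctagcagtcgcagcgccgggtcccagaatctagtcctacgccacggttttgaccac

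The Nqo1 window held 1 TATA box, from base -29 to base -24 before the start. The Cbr1 window held 2 xenobiotic response element cores, 1 read on the plus strand from -7 to -3 and 1 on the minus strand from -43 to -39 (CACGC as printed). The Cbr3 window held 0 matches. Among 32851 mouse promoter windows of this length, 32.4% held the xenobiotic core, 13.6% the TATA box, 12.4% the antioxidant core and 5.2% the AP-1 site. The antioxidant core and the AP-1 site were in 0 of the windows of the 5 genes. Nqo2 had 2 listed windows, each with 1 xenobiotic core, at chr13:33964409-33964708 (from -93 to -89) and at chr13:33966903-33967202 (from -137 to -133), and Ptgr1 (chr4:58987029-58987328, minus strand) had 0 matches. A match is a string of letters and not a bound site, and elements farther from the start lie outside these windows.

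The samples carried lung transcripts, with the surfactant gene Sftpc between 14.51 and 14.63 and the club cell gene Scgb1a1 between 14.30 and 14.51 in log2 signal. Of the liver transcripts, Apob lay above the 40th percentile on 0 arrays and Alb on 5. Apoa1 (5.12 to 5.81) and Ttr (5.39 to 6.06) lay above it on 18. The medians of the 18 arrays ranged from 5.68 to 5.80. Benzofuran animal 10 stood apart, with a score of 46.6 on the first principal component of all genes against -11.8 to 7.81 for the others, and with a 3′ minus 5′ difference of the actin control probe sets of 0.906. Its RNA integrity number was 8.9, within the 8.3 to 9.4 of the 15 arrays that have one. The actin difference was 0.580 to 0.726 in feed controls and 0.333 to 0.432 with NDA. The differences of the 5 genes with benzofuran are also given without animal 10. In NDA animals the log2 of the summed signal of 5 plasma and B cell markers was 13.41 to 14.49 against 10.07 to 11.11 in feed controls. Of these 5 markers 3 were called higher, where 1.12% of all tested genes were, and the lowest difference was 0.15. For 4 club cell markers the log2 of the sum was 15.50 to 15.55 against 15.64 to 15.70. However, 1 of the 4, Upk3a, was called higher (1.40 ± 0.13) and the other 3 did not pass.

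Nqo1 separated the treatments most widely of the 5. Its log2 signal was 6.33, 6.38 and 6.22 in feed controls, 9.27, 9.34 and 9.61 with NDA, 6.61, 6.46 and 6.73 with NEDD, and 6.82, 7.09 and 6.68 with PCNB. It was 5.92, 6.46 and 6.34 in corn oil controls and 8.45, 7.88 and 8.84 with benzofuran. Every NDA animal lay above every benzofuran animal, and every benzofuran animal above all the other 12.

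With NDA, Nqo1 averaged 9.41 ± 0.18 against 6.31 ± 0.08 in feed controls (SD, n = 3 each). The log2 difference was 3.10 ± 0.19 (SE; 95% interval 2.69 to 3.50), a signal 8.56-fold higher, which placed it 11 of 13434 genes by size of rise. With benzofuran it averaged 8.39 ± 0.48 against 6.24 ± 0.29 in corn oil controls, a log2 difference of 2.15 ± 0.19 (interval 1.75 to 2.55) or 4.43-fold, which placed it 2 of 13434. Without benzofuran animal 10 the difference was 1.93 ± 0.18. These contrasts are the ones that chose the gene.

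The treatments classed negative gave smaller values. With PCNB, Nqo1 averaged 6.87 ± 0.21, a log2 difference of 0.56 ± 0.19 (interval 0.15 to 0.96). The PCNB and feed control animals did not overlap, as in 3.67% of all tested genes in that direction, but the adjusted p was 0.9995 (limma with Benjamini-Hochberg over 13434 genes; p before adjustment 0.00966). By size of rise it placed 11 of 13434 with PCNB too. Under NEDD the mean was 6.60 ± 0.14 and the log2 difference 0.29 ± 0.19 (adjusted p = 0.614). The NEDD animals also all lay above the feed controls, where 7.23% of tested genes did. In order of group mean Nqo1 ran from corn oil and feed controls through NEDD, PCNB and benzofuran to NDA. Both controls overlapped with each other, and so did NEDD and PCNB, whereas PCNB, benzofuran and NDA did not overlap.

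**Figure D1:**
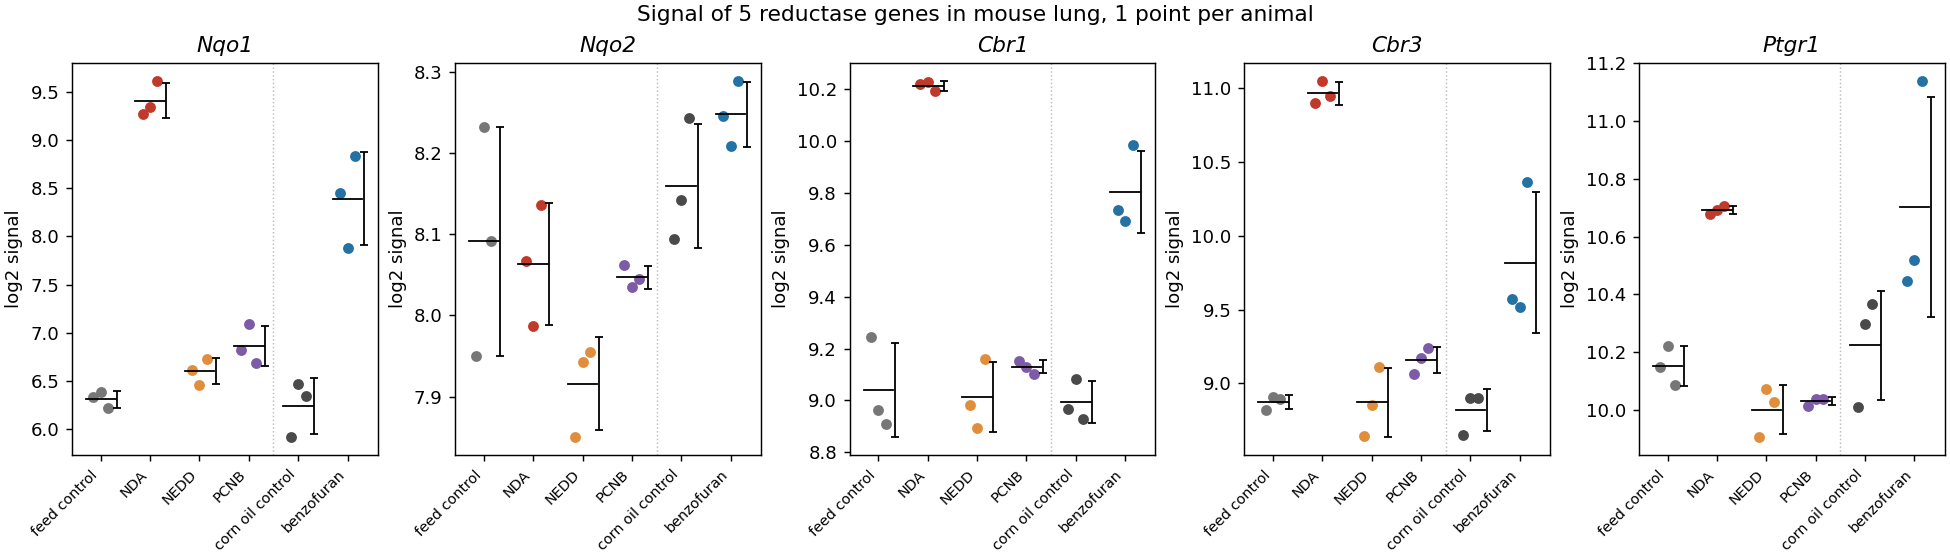
Log2 signal of each gene (vertical axes, own scale per panel) in the 6 groups (horizontal axis), 1 point per animal, with the group mean as a line and 1 SD as a bar beside it; the dotted line divides feed groups from gavage groups. Nqo1, Cbr1 and Cbr3 of all NDA and all benzofuran animals lie above their controls, while Nqo2 spans only 7.85 to 8.29 over all animals.

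Cbr3 was next in size. It encodes a cytosolic carbonyl reductase that uses NADPH. Its log2 signal was 8.82, 8.91 and 8.89 in feed controls and 10.90, 11.05 and 10.94 with NDA, so every NDA animal lay far above the controls. The means were 8.87 ± 0.05 and 10.96 ± 0.08, a log2 difference of 2.09 ± 0.17 (interval 1.73 to 2.45), 4.26-fold higher (adjusted p = 4.44e-07, limma).

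With benzofuran Cbr3 measured 9.57, 9.52 and 10.37 against 8.65, 8.90 and 8.90 in corn oil controls. All 3 treated animals were above the controls, and 1 of them, animal 10, was well above the other two. The log2 difference was 1.00 ± 0.17 (interval 0.64 to 1.36), 2.00-fold (adjusted p = 0.00695, limma). It was 0.72 ± 0.12 without animal 10 (adjusted p = 0.00947) and 0.92 without corn oil animal 22, where the adjusted p was 0.0587 and the call was lost. Cbr3 read 8.64, 8.86 and 9.11 with NEDD, on both sides of its controls (difference 0.00 ± 0.17, adjusted p = 0.998). With PCNB it read 9.06, 9.17 and 9.24, all above the controls, with a difference of 0.28 ± 0.17 that missed the threshold (adjusted p = 0.9995). The order of group means was corn oil, NEDD and feed control, which overlapped, then PCNB, which overlapped with NEDD, and then benzofuran and NDA, each apart.

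Cbr1 encodes the carbonyl reductase that neighbours Cbr3 and also reduces prostaglandins and menadione. Its log2 signal was 9.25, 8.96 and 8.91 in feed controls and 10.22, 10.23 and 10.19 with NDA. The NDA animals were nearly level with each other and all above the controls. The means were 9.04 ± 0.18 and 10.21 ± 0.02, a log2 difference of 1.17 ± 0.11 (interval 0.95 to 1.40) or 2.26-fold (adjusted p = 1.99e-06, limma). With the actin difference as a covariate the NDA effects were 3.40 for Nqo1, 2.37 for Cbr3 and 1.29 for Cbr1, and the part of the plasma and B cell signal in them was not tested.

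Benzofuran animals measured 9.73, 9.69 and 9.99 for Cbr1 against 8.97, 9.08 and 8.93 in corn oil controls, without overlap. The rise was 0.81 ± 0.11 on the log2 scale (interval 0.59 to 1.04), 1.75-fold (adjusted p = 0.000491, limma), and 0.72 ± 0.10 without animal 10 (adjusted p = 0.00268). Values of 8.98, 8.89 and 9.16 with NEDD and 9.15, 9.13 and 9.10 with PCNB fell inside the range of the feed controls except for NEDD 14, at 8.89. Their differences were -0.03 ± 0.11 (adjusted p = 0.945) and 0.09 ± 0.11 (adjusted p = 0.9995). In order of mean came corn oil, NEDD, feed control and PCNB, each overlapping with its neighbour, then benzofuran and NDA, apart from them and from each other.

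Ptgr1 encodes an enzyme that inactivates leukotriene B4, reduces 15-keto prostaglandins and saturates the double bond of reactive alkenals. Its log2 signal was 10.15, 10.22 and 10.09 in feed controls and 10.68, 10.69 and 10.71 with NDA. The groups stood apart, but the log2 difference of 0.54 ± 0.14 (interval 0.24 to 0.84, 1.45-fold) missed the threshold (adjusted p = 0.0743, limma). It passed in 3 of 9 alternative settings. These were array weights (0.53, adjusted p = 0.00112), NDA and feed control arrays fitted alone (0.54, adjusted p = 0.0118) and the actin covariate (0.75, adjusted p = 0.00593). Array weights also raised the calls over all genes with NDA from 184 to 755. With an array left out it passed in 1 of 18 fits, the one without benzofuran animal 10 in the pooled spread (0.54, adjusted p = 0.00215). Over all these fits the adjusted p reached 0.283 (limma).

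With benzofuran Ptgr1 measured 10.45, 10.52 and 11.14 against 10.01, 10.30 and 10.37 in corn oil controls. The groups again did not overlap, the gap was narrow, and animal 10 was highest. The log2 difference was 0.48 ± 0.14 (interval 0.18 to 0.77), with an adjusted p of 0.0843. Without animal 10 it was 0.26 ± 0.10 (adjusted p = 0.316). It was 0.61 without animal 6 and 0.57 without animal 8, and both of these passed (adjusted p = 0.0395 and 0.0338). NEDD (9.91, 10.07 and 10.03) and PCNB (10.01, 10.04 and 10.04) lay just below every feed control, with differences of -0.15 ± 0.14 (adjusted p = 0.713) and -0.12 ± 0.14 (adjusted p = 0.9995). Signals lower without overlap were found in 12.1% of all tested genes for NEDD and 4.87% for PCNB. Ordered by mean, NEDD, PCNB, feed and corn oil controls came first, of which corn oil overlapped with the other 3, and NDA and benzofuran followed with means of 10.69 and 10.70.

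Nqo2 encodes a quinone reductase that, unlike NQO1, takes its electrons from dihydronicotinamide riboside and hardly uses NADPH. The probe set used (1455590_at) read 7.95, 8.23 and 8.09 in feed controls, 8.07, 7.99 and 8.14 with NDA, 7.85, 7.94 and 7.96 with NEDD and 8.06, 8.03 and 8.04 with PCNB. It read 8.09, 8.14 and 8.24 in corn oil controls and 8.25, 8.21 and 8.29 with benzofuran. Each treatment overlapped with its control, and in order of mean (NEDD, PCNB, NDA, feed control, corn oil control, benzofuran) NEDD and PCNB were the one pair of neighbours without overlap. The differences were -0.03 ± 0.09 with NDA (adjusted p = 0.949), -0.18 ± 0.09 with NEDD (adjusted p = 0.539), -0.04 ± 0.09 with PCNB (adjusted p = 0.9995) and 0.09 ± 0.09 with benzofuran (adjusted p = 0.626), or 0.07 ± 0.09 without animal 10 (adjusted p = 0.857). The 95% intervals reached no higher than 0.16 with NDA and 0.28 with benzofuran for this probe set.

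The differences of the 3 Nqo2 probe sets varied in sign with NDA and with benzofuran, and all 3 were negative with NEDD. None of these differences passed the threshold. A dimmer one, 1449983_a_at, read 7.18, 7.33 and 7.12 in feed controls and 7.58, 7.53 and 7.79 with NDA. No NDA animal overlapped with a control, as in 9.48% of all tested genes in that direction. The same probe set read 7.13, 7.03 and 7.37 in corn oil controls and 7.66, 7.53 and 7.84 with benzofuran. These were also apart, as in 13.1% of all tested genes in that direction. Its differences of 0.42 ± 0.13 (adjusted p = 0.170) and 0.50 ± 0.13 (adjusted p = 0.0596) missed the threshold. The dimmest, 1436189_at, gave -0.19 ± 0.15 with NDA and -0.13 ± 0.15 with benzofuran. Its mean of 5.62 lay at the 42.1 percentile of probe sets with a single symbol, near the level not told apart from background. With NEDD 1449983_a_at gave -0.26 ± 0.13 (adjusted p = 0.549, limma) and 1436189_at gave -0.41 ± 0.15 (adjusted p = 0.493, limma). For 1436189_at the NEDD animals (5.19 to 5.50) lay below the feed controls (5.54 to 5.90), as 12.1% of all tested genes did. With PCNB the differences were -0.03 ± 0.13 for 1449983_a_at and -0.10 ± 0.15 for 1436189_at. Which transcripts each probe set detects was not analysed here, and Nqo2 is therefore uncertain.

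**Figure D2:**
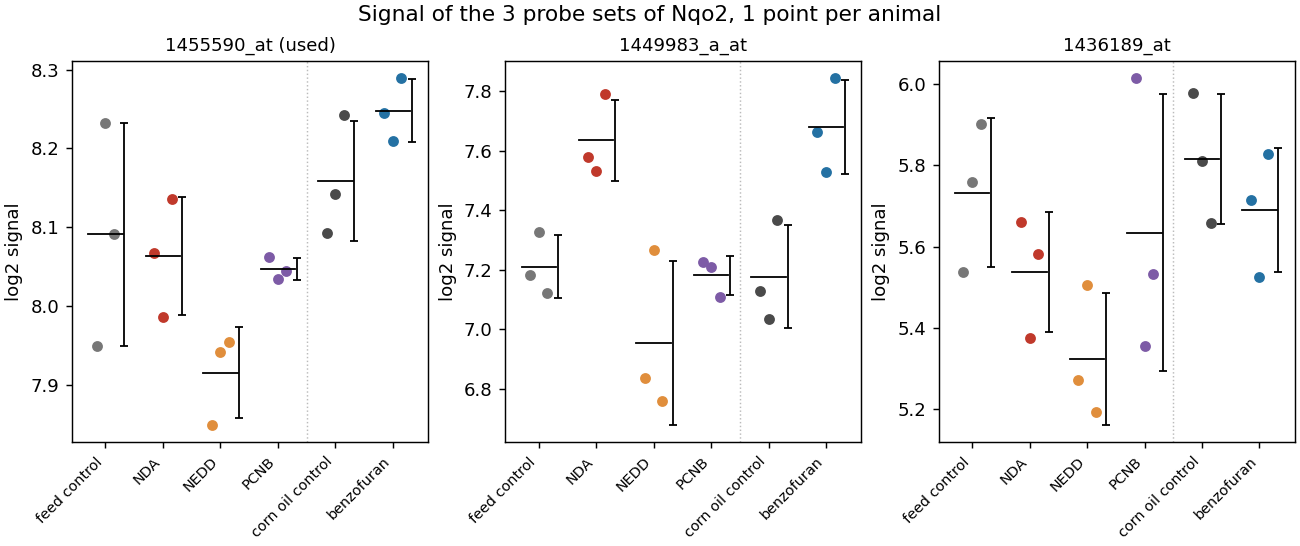
Log2 signal (vertical axes, own scale per panel) of the 3 Nqo2 probe sets by group (horizontal axis), 1 point per animal, line for the mean and bar for 1 SD; the dotted line divides feed from gavage groups. NDA and benzofuran stand above their controls for 1449983_a_at and overlap with them for the other two probe sets.

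Counted over Nqo2, Cbr1, Cbr3 and Ptgr1, without Nqo1, 2 of 4 were called higher with NDA (adjusted p under 0.05; Cbr1 and Cbr3), where 1.12% of all tested genes were, and their median log2 difference was 0.86 against -0.02 over all genes. With benzofuran Cbr1 and Cbr3 were again called, 2 of 4 against 1.56% of all tested genes, with a median of 0.64 against 0.05. Without animal 10 both were still called, where 0.454% of all tested genes were called higher. When benzofuran and corn oil arrays were fitted alone, Cbr1 and Cbr3 no longer passed (adjusted p = 0.142 and 0.350, limma). With benzofuran 2 of 4 fibroblast markers were called lower (median -0.66), where 23 of 13434 genes were, or 0 of 4 without animal 10 (median -0.48). The log2 of the summed fibroblast signal was 13.28 to 13.40 in corn oil controls and 12.45 to 13.04 with benzofuran. It was 12.84 to 13.16 in feed controls, which overlapped with benzofuran. Of 3 neutrophil markers 0 passed (median -0.67), and again 0 without animal 10 (median -0.89). The part of fibroblasts and neutrophils in the benzofuran differences was not tested. With NEDD and with PCNB 0 of 5 genes were called, where 0.0149% of genes were called higher in each, and at an unadjusted p under 0.05 the counts were 0 with NEDD (9.44% of all genes) and 1 with PCNB (Nqo1; 2.97%). Groups without overlap, treated above control, were seen for 3 of the 4 genes other than Nqo1 with NDA (9.48% of all tested genes) and 3 of 4 with benzofuran (13.1%), Nqo2 being the exception. Corn oil against feed control called 0 of 5, as it called 0% of all genes by limma, with 0 of 5 at an unadjusted p under 0.05 against 2.02% of all genes. The differences between both controls ran from -0.07 (Nqo1) to 0.07 (Ptgr1).

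**Figure D3:**
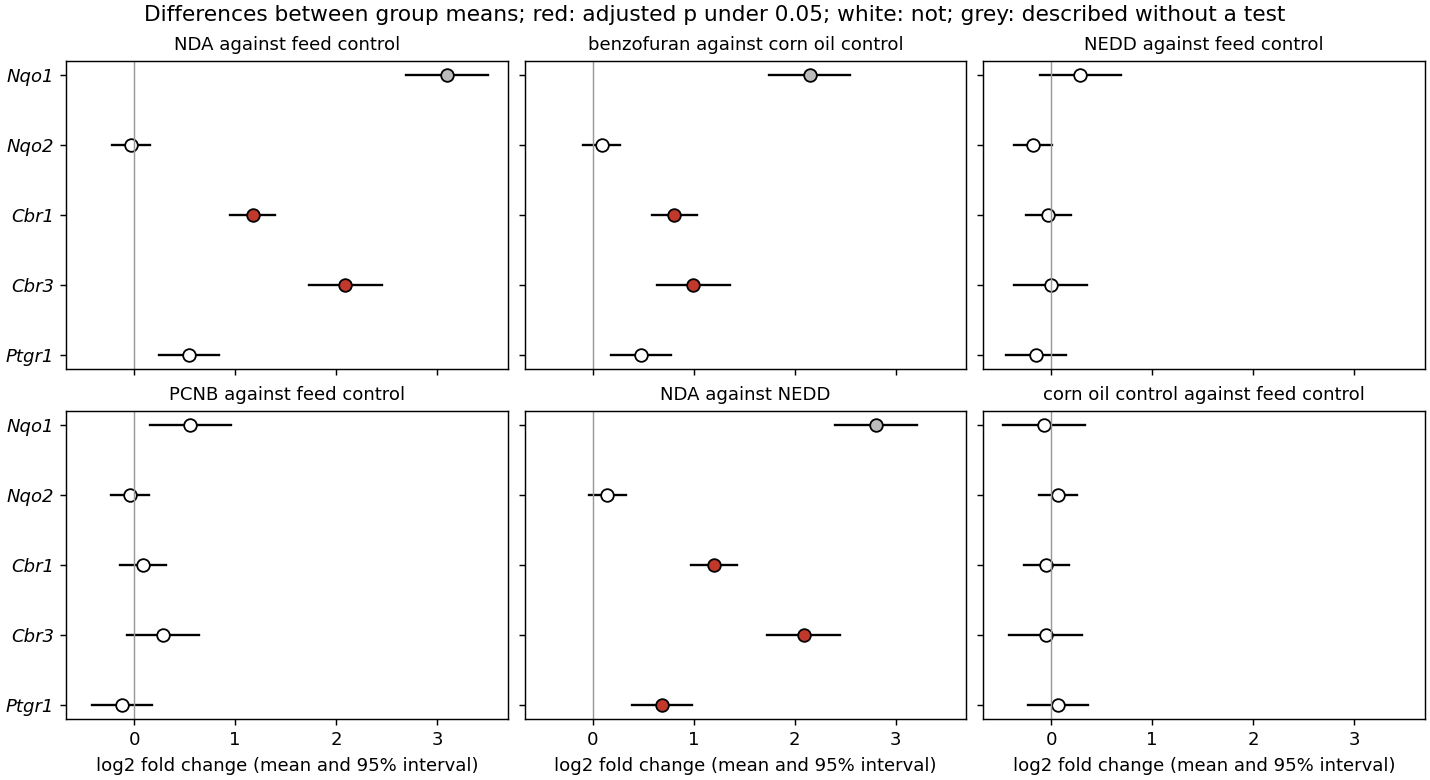
Log2 fold change (horizontal axis) of each gene in 6 comparisons of group means, with the 95% interval as a line; red points had an adjusted p under 0.05, white points did not, and grey points are Nqo1 where it was chosen for its rise and is not tested. The NDA and NDA against NEDD panels have the same order, Nqo1 then Cbr3 then Cbr1 then Ptgr1, and the points of the corn oil panel run from -0.07 to 0.07.

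NDA and NEDD are both naphthalenes that carry nitrogen, NDA with a pair of free ring amines and NEDD with a single ring nitrogen bearing an aminoethyl chain, and both were fed at 2000 ppm for 13 weeks. This was the only pair of compounds compared directly. Nqo1 averaged 9.41 with NDA and 6.60 with NEDD, a log2 difference of 2.81 ± 0.19 (7.00-fold). Cbr3 was higher with NDA by 2.09 ± 0.17 (adjusted p = 4.67e-07), Cbr1 by 1.20 ± 0.11 (adjusted p = 1.50e-06) and Ptgr1 by 0.69 ± 0.14 (adjusted p = 0.00956, limma). The call of Ptgr1 was lost without NEDD animal 12 (0.64, adjusted p = 0.0636). Nqo2 differed by 0.15 ± 0.09 (interval -0.04 to 0.33, adjusted p = 0.551), whereas its probe set 1449983_a_at differed by 0.68 ± 0.13 (adjusted p = 0.00674). Leaving out Nqo1, 3 of 4 genes were called higher with NDA than with NEDD, where 1.88% of all tested genes were, and 4 of 4 had NDA animals above NEDD animals without overlap, as 13.2% of tested genes did. Of 5 ciliated cell markers 5 were higher with NDA than with NEDD (median 0.50), 0 of them called, and their part in the Ptgr1 difference was not tested.

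The treatments classed positive were set against those classed negative as a difference between averaged effects (NDA with benzofuran, less NEDD with PCNB), every effect being taken from its own control. Nqo1 differed by 2.20 ± 0.17, Cbr3 by 1.40 ± 0.15 (adjusted p = 2.51e-05), Cbr1 by 0.96 ± 0.09 (adjusted p = 8.14e-06) and Ptgr1 by 0.65 ± 0.12 (adjusted p = 0.00537, limma). Nqo2 differed by 0.14 ± 0.08 (adjusted p = 0.337), but its probe set 1449983_a_at differed by 0.61 ± 0.11 (adjusted p = 0.00554), and with array weights the probe set used passed at 0.20 (adjusted p = 0.0438, limma). Without Nqo1 the count was 3 of 4, beside 3.16% of all tested genes. Without benzofuran animal 10 the differences were 1.27 for Cbr3, 0.92 for Cbr1 and 0.54 for Ptgr1, all of which passed. Of the 5 ciliated cell markers 4 were called higher in this contrast, with a median of 0.66, beside the 0.65 of Ptgr1. Against its own control, the marker median was 0.13 with NDA, beside 0.54 for Ptgr1, and 0.52 with benzofuran, beside 0.48. The part of these markers in the Ptgr1 difference was not tested. The contrast reuses the arrays of the comparisons above and the shared feed controls, so it is not a separate piece of evidence.

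NDA and benzofuran differed in dose, route and days of dosing, and the effects, set side by side here, are not at matched doses. The rises were 3.10 and 2.15 for Nqo1, 2.09 and 1.00 for Cbr3, 1.17 and 0.81 for Cbr1, and 0.54 and 0.48 for Ptgr1, with NDA given first. Taken as a difference of effects, which dose and route enter too, it was largest for Cbr3, at 1.09 ± 0.24, and missed the threshold (adjusted p = 0.0744, limma). Of the 4 genes without Nqo1 0 were called for it, where 0.201% of all tested genes were called with the larger effect in NDA, and 2 of 4 (Cbr3 and Cbr1) had an unadjusted p under 0.05 against 9.34% of genes in either direction. Without benzofuran animal 10 the difference for Cbr3 was 1.36 and passed (adjusted p = 0.000636).

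Few other enzymes of like chemistry were called. Of 14 other carbonyl reducing short-chain dehydrogenases tested, 0 were called in any of the comparisons, a count that says little at the 1.12% of all genes called higher with NDA and 1.56% with benzofuran. With benzofuran 13 of the 14 were above their control, with a median of 0.25 against 0.05 over all genes, or 0.13 without animal 10. Cbr2, the carbonyl reductase known for its abundance in lung, averaged 14.13 in feed controls and 13.97 with NDA (difference -0.16 ± 0.08, adjusted p = 0.540), and it differed by 0.02 ± 0.08 with benzofuran (adjusted p = 0.930). The highest value of any probe set was 14.78, and whether a signal this high narrowed the differences of Cbr2 was not tested. Ptgr2, which like Ptgr1 reduces 15-keto prostaglandins, was among 7 medium-chain reductases of which 0 were called, and its difference with NDA was 0.00 ± 0.09. Of 6 enzymes that reduce quinones by single electrons 0 were called, which is likewise near the share of all genes.

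The aldo-keto reductases, a separate family that reduces carbonyls with NADPH, gave calls in part. With NDA 2 of 9 rose, Akr1b8 by 1.16 ± 0.14 (adjusted p = 7.25e-05) and Akr1c19 by 1.14 ± 0.21 (adjusted p = 0.00457). With benzofuran 3 of 9 rose, Akr1b8 by 0.86 ± 0.14 (adjusted p = 0.00453), Akr1c19 by 0.91 ± 0.21 (adjusted p = 0.0300) and Akr1c13 by 0.74 ± 0.16 (adjusted p = 0.0224). Without animal 10, 2 of 9 passed (Akr1b8 and Akr1c13), and Akr1c19 had an adjusted p of 0.157. Over all 36 other reductases tested of 45 listed, the median log2 difference was 0.02 with NDA and 0.19 with benzofuran. Those called higher were 2 (5.56%) with NDA, 3 (8.33%) with benzofuran and 0 with NEDD or PCNB. Of all tested genes, 1.12% were called higher with NDA, 1.56% with benzofuran (0.454% without animal 10) and 0.0149% with each of NEDD and PCNB.

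Known targets of NRF2 other than these 5 genes moved widely. With NDA 19 of 21 were called higher, where 1.12% of all tested genes were, with a median of 0.84. Among them were the glutathione peroxidase Gpx2 (2.45 ± 0.17), the glutathione transferase Gsta2 (1.99 ± 0.16) and the sulfiredoxin Srxn1 (1.62 ± 0.15). With benzofuran 9 of 21 were called higher, where 1.56% of all tested genes were, with a median of 0.48. Gpx2 (1.68 ± 0.17) and Gsta2 (1.39 ± 0.16) led these. Without animal 10, 7 of 21 were called, where 0.454% of all tested genes were called higher. With NEDD and PCNB 0 of 21 were called, where 0.0149% of all tested genes were called higher in each. For PCNB 20 of 21 were above 0, with a median of 0.10. The difference of Nqo1 with NDA lay above the highest of the 21, and that of Cbr3 above all but Gpx2. These targets were listed with earlier results of these data known, and Nqo1 was chosen with its rise already known.

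Of 8 regulators tested (among them Nfe2l2, which encodes NRF2, Keap1, Bach1 and Ahr), 0 were called in any comparison, at shares of all genes called higher of no more than 3.16%. Nfe2l2 differed by -0.01 ± 0.11 with NDA (adjusted p = 0.984) and by 0.00 ± 0.11 with benzofuran (adjusted p = 0.994). The NRF2 protein is controlled mainly by its breakdown, which transcript arrays do not measure.

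Cyp1a1, the classic target of the AhR, was higher by 5.96 ± 0.44 with NDA (adjusted p = 1.05e-07), by 3.70 ± 0.44 with PCNB (adjusted p = 0.00118) and by 3.23 ± 0.44 with NEDD (adjusted p = 0.0118, limma). In the same comparisons Nqo1 differed by 3.10, 0.56 and 0.29. With benzofuran Cyp1a1 differed by 0.47 ± 0.44 (adjusted p = 0.593) and Nqo1 by 2.15. Of 4 AhR targets tested other than Nqo1, Cyp1a1 among them, 3 were called higher with NDA and 1 with each other treatment. With NEDD and with PCNB that 1 was Cyp1a1. With benzofuran it was Aldh3a1 (1.45 ± 0.21, adjusted p = 0.00170, limma), called also without animal 10. Of all tested genes, 1.12% were called higher with NDA, 1.56% with benzofuran and 0.0149% with each of NEDD and PCNB. The median of the 4 was 1.73 with NDA, 0.33 with benzofuran, 0.25 with PCNB and 0.07 with NEDD. The part of the AhR in the values of Nqo1, Cbr1 and Cbr3 was not tested.

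**Figure D4:**
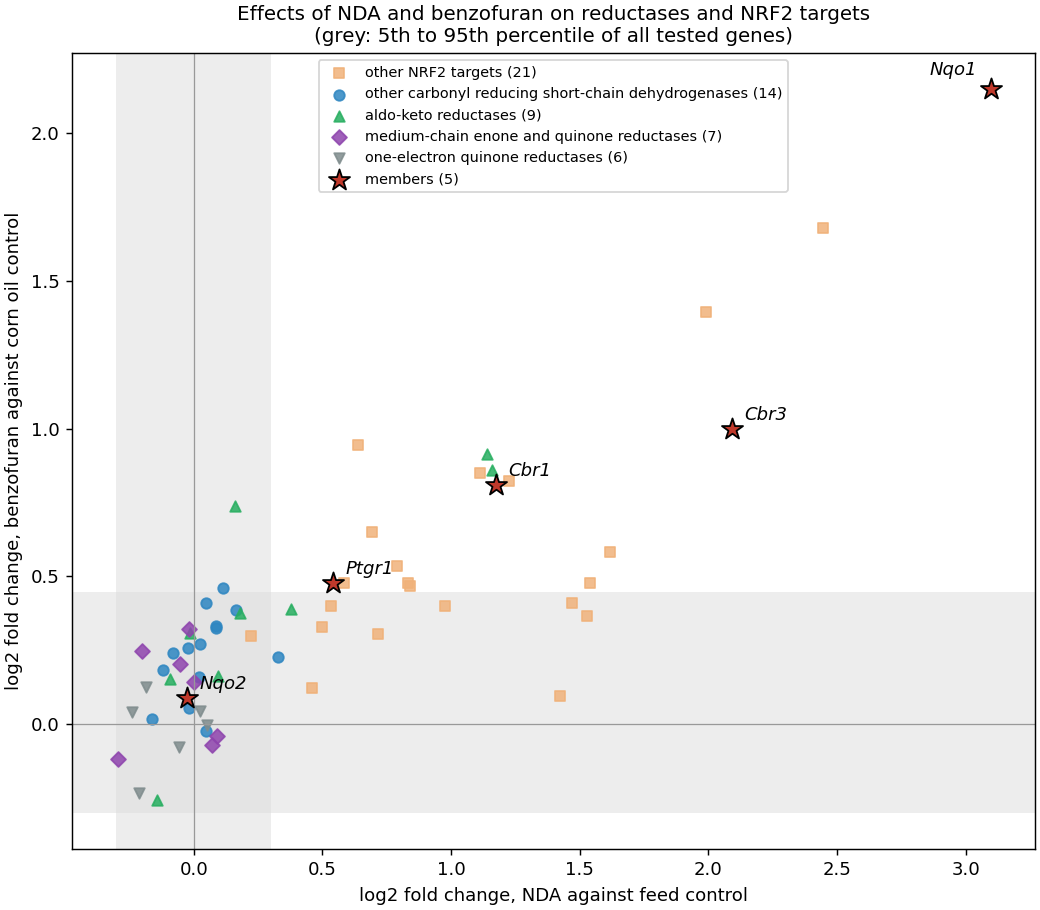
Log2 fold change with NDA (horizontal axis) against log2 fold change with benzofuran (vertical axis), 1 symbol per gene, for the 5 genes (stars), other NRF2 targets and 4 lists of other reductases; grey bands hold the 5th to 95th percentile of all tested genes. Nqo1 lies farthest out at 3.10 and 2.15, Nqo2 lies among the reductases near 0, and the NRF2 targets spread between 0.22 and 2.45 on the NDA axis.

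Across the 18 arrays Nqo1, Cbr1 and Cbr3 ran in parallel. Pearson's r was 0.98 for Nqo1 with Cbr1, 0.96 for Nqo1 with Cbr3 and 0.96 for Cbr1 with Cbr3. Most of this is the distance of the NDA and benzofuran groups from the rest, since between 94.4% and 96.8% of the variance of these genes lay between groups. After subtracting the group means the same correlations were 0.54, 0.67 and 0.56, and without benzofuran animal 10 they were 0.31, 0.38 and 0.22 over 17 arrays. For Cbr3 with Ptgr1 it was 0.89 within groups and 0.61 without animal 10. The points share their arrays, and no test was made.

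The gene most like Nqo1 over the 18 arrays was Gpx2 (r = 0.991), followed by the peroxisomal oxidase Acox2 (0.984), Gsta2 (0.979), the carboxylesterase Ces1g (0.977) and the epoxide hydrolase Ephx1 (0.976). Cbr1 was most like Gsta2 (0.989), Acox2 (0.980) and Gpx2 (0.977). Cbr3 was most like the glutathione synthetase Gss (0.981), the glutathione reductase Gsr (0.979) and Fetub (0.977).

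Outside the 5 genes, which were left out of this ranking, Ptgr1 had other companions than these. Its r over the 18 arrays was 0.83 with Nqo1, 0.85 with Cbr1 and 0.82 with Cbr3. The genes most like it were Tspan1 (0.964), Rsph9 (0.947), which encodes a part of the radial spoke of cilia, and Nme5 (0.946), a gene of ciliated cells and sperm. Nqo2 was most like Stk33 (0.851), Prkag2 (0.848) and Ift80 (0.835), the last of which encodes a protein of intraflagellar transport. With Ptgr1 moved the summed signal of 5 markers of ciliated airway cells (Foxj1, Tekt1, Rsph1, Dnah5 and Tekt4). Its log2 value was 10.20 to 10.66 in feed controls, 10.64 to 10.76 with NDA, 10.11 to 10.52 in corn oil controls and 10.66 to 11.26 with benzofuran. It was 10.10 to 10.32 with NEDD and 10.25 to 10.47 with PCNB. Benzofuran animal 10 had both the highest ciliated sum (11.26) and the highest Ptgr1 (11.14). Of these 5 markers 5 were above their control with NDA and with benzofuran, of which 0 and 1 passed the threshold (0 with benzofuran without animal 10), and 0 of 5 were above it with NEDD or PCNB. Their median difference was 0.13 with NDA, 0.52 with benzofuran (0.33 without animal 10), -0.19 with NEDD and -0.13 with PCNB. In the same order Ptgr1 differed by 0.54, 0.48 (0.26 without animal 10), -0.15 and -0.12. The part of these markers in the Ptgr1 differences was not tested either. The 6 partners of Ptgr1 in eicosanoid inactivation that were tested, among them the prostaglandin dehydrogenase Hpgd, gave 0 calls in any comparison, again at those low shares of all genes.

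**Figure D5:**
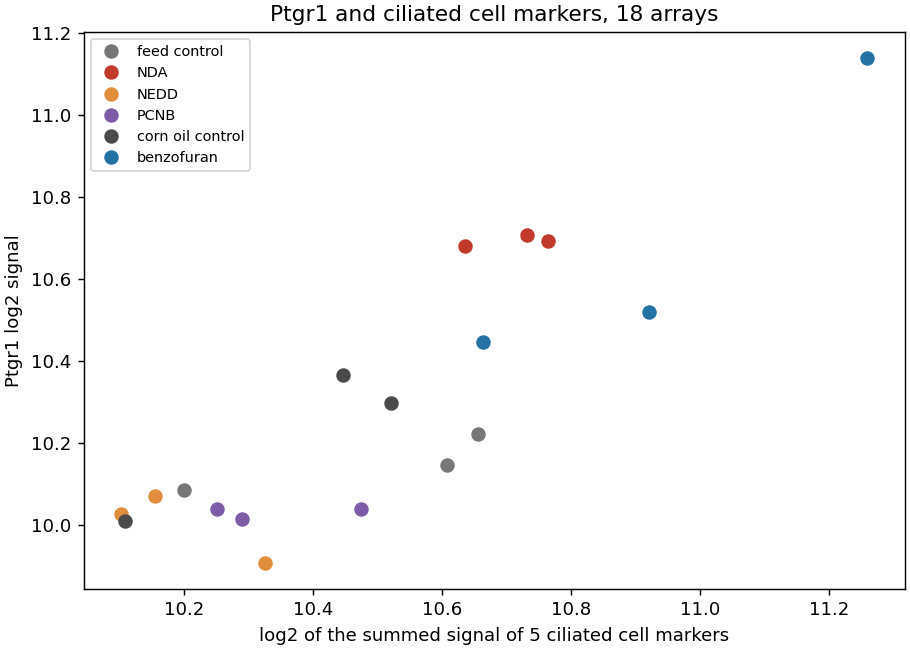
Log2 signal of Ptgr1 (vertical axis) against the log2 of the summed signal of 5 ciliated cell markers (horizontal axis), 1 point per animal, coloured by group. The NDA and benzofuran animals lie highest in Ptgr1, with benzofuran 10 at 11.26 and 11.14, and the NEDD and PCNB animals occupy the lower left. On the horizontal axis NDA animals lie at 10.64 to 10.76, and feed controls reach 10.66.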

How the data were processed

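Affymetrix Mouse 430 2.0 arrays of 18 lungs were deposited as 1 table of processed values. The authors' deposited values were read as log2, judged from a range of 2.48 to 14.78. How they were summarised and normalized, and the log base, is not given in the sources used here. Folds assume base 2. Of 45101 probe sets 34945 had a single gene symbol in the platform annotation, 932 several and 9160 none, beside 64 controls, and 34741 matched RefSeq (GRCm38.p6) by gene identifier. The probe set with the highest mean represented a gene, and genes above the 40th percentile of their array on at least 3 arrays were tested (13434 of 18193). A linear model with a mean for each group (limma 3.58.1, R 4.3.3; 18 arrays, 12 residual degrees of freedom) gave two-sided tests, with Benjamini-Hochberg adjustment over genes in each of 8 comparisons and a threshold of 0.05. The procedure was tested on simulated data. The 3 arrays per group limit the precision, and intervals are 95%. NDA, NEDD and PCNB share their controls.

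The genes, the lists and the rules were chosen with earlier results of these data known. Named are the 5 genes with every probe set of theirs, called list members with the largest changes (up to 4 per list), Cbr2, and the genes with the highest Pearson r to each (5 for Nqo1, 3 for the others, clone names left out). Keap1, Bach1, Ahr, Ptgr2, Hpgd and Nfe2l2 are named for their roles. Alternatives were median centring, quantile normalization, other filters, other probe set rules, array weights, only the groups compared, the actin difference as a covariate, and each array left out. The gene lists were also counted without benzofuran 10, a setting chosen after seeing the data. Upk3a was named after its value was seen.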

Additional observations from a re-analysis of the deposited data

How the results depend on the processing

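Over all alternatives, 1022 of the values for single genes kept their direction and their side of the threshold, 31 changed sign, 18 passed the threshold where the reported value did not, and 4 no longer passed it. These counts include Nqo1, whose side of the threshold is not read as a test where NDA or benzofuran enters. Each of the 18 arrays was left out in turn. With NDA, Cbr1 and Cbr3 were called in 18 of 18 such fits and Ptgr1 in 1. With benzofuran, Cbr1 was called in 18, Cbr3 in 17 and Ptgr1 in 2. For NDA against NEDD, Cbr1 and Cbr3 were called in 18 and Ptgr1 in 17. With only benzofuran and corn oil arrays in the fit, Cbr1 and Cbr3 were not called for benzofuran (adjusted p = 0.142 and 0.350, limma), and fewer arrays estimate the spread there. For the NDA effect minus the benzofuran effect, Cbr1 and Cbr3 were called with array weights and Cbr3 with the actin covariate. When an array was left out, Cbr3 was called in 1 of 18 fits, the one without benzofuran 10, and Cbr1 in 0. Ptgr1 with benzofuran passed with array weights (0.30, 0.0481) and the actin covariate (0.46, 0.0362). The cause was not tested. No value that was called changed sign.

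The changes of sign were all of values that had not passed. Ptgr1 in the NDA effect minus the benzofuran effect was -0.0089 with median centring and -0.065 to 0.28 with an array left out. For NEDD, Cbr1 was 0.028 with quantile normalization, 0.0095 with array weights, 0.055 with the actin covariate and -0.10 to 0.076 with an array left out, and Cbr3 was 0.049 with quantile normalization, 0.19 with the actin covariate and -0.12 to 0.11. Nqo2 was 0.0081 with quantile normalization for PCNB (-0.11 to 0.027 with an array left out). Nqo2 with NDA was 0.067 as the mean of its probe sets, 0.42 for the probe set with the largest SD and -0.099 to 0.043 with an array left out. Between the controls, Nqo2 was -0.034 for that probe set, -0.0043 with array weights and -0.0026 to 0.14 with an array left out. Cbr1 there was 0.017 with array weights, 0.0061 with the actin covariate and -0.11 to 0.057, Nqo1 was 0.062 with that covariate and -0.18 to 0.093, and Cbr3 was 0.069 and -0.096 to 0.029.

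Genes called over the whole array moved by over 1.5 times with array weights (from 184 to 755 with NDA, 233 to 1149 with benzofuran, 3 to 521 with NEDD, 285 to 1813 for NDA against NEDD, 469 to 1873 for the classes and 39 to 158 for the difference of effects). With only the groups compared they were 283, 5, 0 and 507 for the first 4 of these, and with the actin covariate 364, 734, 1 and 625. Benzofuran called 153 with the probe set of largest SD, 37 without corn oil 22, 113 without corn oil 24, 67 without benzofuran 10 and 1054 without benzofuran 8. NDA called 120 without feed control 29 and 311 without benzofuran 10, and NEDD called 0 without feed control 28 or NEDD 15 and 1 without feed control 29, NEDD 14, corn oil 22 or 24, or any NDA animal, and 1 with the probe set of largest SD. PCNB called 0 instead of 2 with only the groups compared, and corn oil against feed control 1 instead of 0 without corn oil 22. NDA against NEDD called 168 without NEDD 12, 189 without NDA 4, 176 without NDA 5 and 584 without benzofuran 10, and the classes 300 without feed control 28 and 868 without benzofuran 8. The difference of effects called 61 without benzofuran 10, 21 with only the groups compared, 25 without corn oil 24 or feed control 27, and 23 without NDA 5. No paired analysis was possible because the animal numbers in the labels occur in 1 group each. A signal near the 40th percentile is not told apart from background, and probe affinity bars comparing levels between genes.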
